A study of Mus musculus with 12 samples.

Results

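The 9 genes described here encode enzymes of the sterol branch of cholesterol synthesis, from squalene to cholesterol: Fdft1, Sqle, Lss, Cyp51, Msmo1, Nsdhl, Ebp, Sc5d and Dhcr7. They were chosen by name as enzymes of that branch, by a rule that uses no measured value, although earlier results of these data were known when the list was drawn up. They make up 9 of the 12393 genes that the array platform's annotation names through a probe set with 1 symbol. All 9 were measured, through 17 probe sets, and all 9 passed the filter on low values. RNA of the cerebellum was hybridised to 12 Affymetrix arrays, 1 for each of 12 mice of the strain BALB/c Npc1. The groups were Npc1+/+ (wild type) at postnatal day 21 (P21), Npc1-/- (null) at P21, wild type at P49 and null at P49, with 3 individual animals each. The animals shared breed and housing, received standard chow and no treatment, and were labelled female apart from null P49 replicate 1, which was labelled male. The labels name neither the allele nor the kind of mutation, and whether Npc1 is lost in all cells is not stated. The comparisons ask how null and wild-type animals differ at either age, and how P49 differs from P21 within a genotype.

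Npc1 is a protein of late endosomes and lysosomes that passes on cholesterol taken up by the cell, and its loss leaves cholesterol in those organelles. Cells make cholesterol themselves in the mevalonate branch, which ends in farnesyl pyrophosphate, and then in the sterol branch, which is committed to sterols. Both branches are switched on together by the transcription factor SREBP-2, which is released when sterols in the endoplasmic reticulum are low and acts at promoters with the factors NF-Y and Sp1. The brain makes nearly all of its own cholesterol, and myelin, formed by oligodendrocytes in the weeks after birth, takes up much of it. Fdft1 (squalene synthase) joins a pair of farnesyl pyrophosphate molecules, Sqle (squalene epoxidase) adds oxygen to squalene and is a control point of the branch, and Lss closes the rings to give lanosterol. Cyp51 (lanosterol demethylase), Msmo1 (methylsterol monooxygenase) and Nsdhl (a sterol dehydrogenase) then remove methyl groups. Ebp moves a double bond, Sc5d adds one, and Dhcr7 reduces one in the last step of one route to cholesterol.

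Promoter sequence was available for 7 of the 9 genes (RefSeq, GRCm38.p6), as the 250 bases before each annotated transcription start. Those of Cyp51, Ebp and Nsdhl are shown because these genes fell with age, and that of Msmo1 because its null and wild-type arrays did not overlap at either age. Capitals mark 2 motifs searched on both strands, the NF-Y box CCAAT and the Sp1 box GGGCGG. A match on the opposite strand reads ATTGG for the former and reads CCGCCC for the latter. The windows are Cyp51 at chr5:4104698-4104947 on the minus strand, Msmo1 at chr8:64733579-64733828 on the minus strand, Nsdhl at chrX:72918271-72918520 on the plus strand and Ebp at chrX:8193513-8193762 on the minus strand. Each is written 5′ to 3′ along the gene's strand and ends at the base before the start.
Cyp51: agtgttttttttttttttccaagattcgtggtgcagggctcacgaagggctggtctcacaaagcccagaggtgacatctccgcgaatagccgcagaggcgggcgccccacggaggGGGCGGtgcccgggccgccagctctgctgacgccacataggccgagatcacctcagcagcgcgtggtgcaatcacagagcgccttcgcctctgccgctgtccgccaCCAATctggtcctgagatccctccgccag
Msmo1: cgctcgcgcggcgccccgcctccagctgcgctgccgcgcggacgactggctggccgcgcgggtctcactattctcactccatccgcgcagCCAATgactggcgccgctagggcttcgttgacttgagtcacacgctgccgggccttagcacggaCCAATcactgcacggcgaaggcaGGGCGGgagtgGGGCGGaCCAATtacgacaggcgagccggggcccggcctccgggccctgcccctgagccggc
Nsdhl: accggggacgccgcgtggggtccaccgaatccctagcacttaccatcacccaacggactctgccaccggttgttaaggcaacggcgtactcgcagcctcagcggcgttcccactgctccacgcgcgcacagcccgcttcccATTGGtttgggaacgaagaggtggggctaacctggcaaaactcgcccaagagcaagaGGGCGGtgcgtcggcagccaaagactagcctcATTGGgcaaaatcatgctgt
Ebp: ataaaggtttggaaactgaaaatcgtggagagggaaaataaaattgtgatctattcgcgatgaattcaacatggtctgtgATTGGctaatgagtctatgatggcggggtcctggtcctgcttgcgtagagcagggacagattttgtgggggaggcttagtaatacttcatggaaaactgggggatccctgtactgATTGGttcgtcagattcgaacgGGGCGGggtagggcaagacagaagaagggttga
The Cyp51 window holds 1 NF-Y box, whose first base lies 29 bases before the start, and 1 Sp1 box, 135 bases before it. Msmo1 has 3 NF-Y boxes and 2 Sp1 boxes, and Nsdhl and Ebp have 2 NF-Y boxes and 1 Sp1 box each. Lss, Sc5d and Dhcr7 make up the rest of the 7, and each of the 7 genes had at least 1 NF-Y box and at least 1 Sp1 box in any of its windows. Dhcr7 has 3 windows, and only window 3 held both, with 2 NF-Y boxes and 3 Sp1 boxes. Its window 1 held 0 NF-Y boxes and 1 Sp1 box, and its window 2 held 0 of either. Among all 27025 genes with a window of the same length, 37.5% had an NF-Y box and 35.4% had an Sp1 box. The motif TCACNCCAC, a form of the sterol regulatory element to which SREBP proteins bind, was found in 0 of the 7 genes and in 1.22% of all genes. Only this form of the element was searched, so its absence does not mean that a window lacks other forms. These are matches of letters, and binding was not measured. The windows place Nsdhl and Ebp on the X chromosome.

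All levels below are log2(intensity + 16) after quantile normalization, differences are on that log2 scale with limma's standard error, and a gene is called changed when its Benjamini-Hochberg adjusted p over the 7835 genes tested is under 0.05. Npc1 checked the genotype labels: it lay between 8.25 and 10.53 on the 6 null arrays and between 11.06 and 11.75 on the 6 wild-type arrays. The Purkinje cell gene Pcp2 (lowest 16.35) and the granule neuron gene Gabra6 (lowest 16.62) were bright on all 12 arrays. Less even were the choroid plexus gene Ttr, from 12.34 to 17.63, and Slc17a6, listed for brainstem neurons, from 10.68 to 13.42. The part of such tissue in the differences below was not tested. Against the sex labels, 3 P21 arrays labelled female had low Xist, the RNA of the inactive X chromosome: wild-type replicate 2 (9.28), null replicate 2 (13.01) and null replicate 3 (13.36), where the other 9 arrays, including the one labelled male, lay between 15.61 and 15.86. The Y-linked gene Eif2s3y was at 12.72, 9.25 and 12.67 on those 3 arrays and at most 8.91 elsewhere. Without these 3 arrays the null P21 group has 1 animal, so its spread is then taken from the other groups. The cerebellum was measured as a whole, so fewer cells of a type and less RNA per cell cannot be told apart.

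Of the 9 enzymes, 2 were called lower at P49 than at P21 in the wild type, where 42 of all 7835 genes were. In the null 2 of 9 were called lower, where 271 of all 7835 genes were. No member was called higher with age. In wild-type animals all 9 differences were negative, with a median of -0.37, against a median of -0.0025 over all genes tested, of which 3959 of 7835 were negative. In null animals all 9 were negative too, with a median of -0.45 against -0.0077. Sqle and Cyp51 fell in the wild type, and Sqle and Ebp fell in the null. Over both genotypes together, a contrast added after the differences within each genotype had been seen, Sqle, Cyp51, Ebp and Nsdhl fell and the median was -0.41. In that contrast 300 of all 7835 genes were called lower, and Nsdhl was called in that contrast only.

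**Figure D1:**
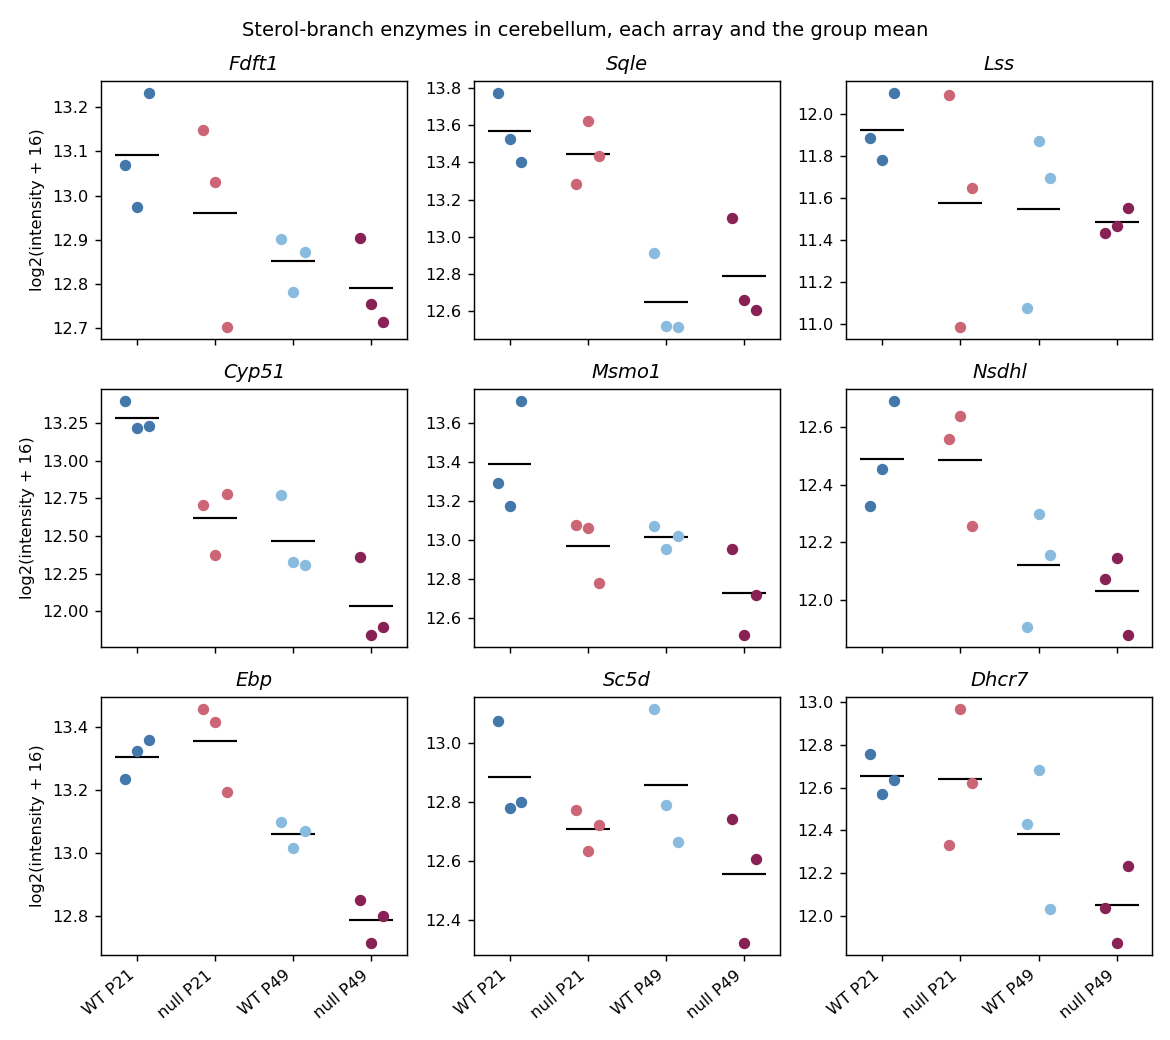
Each panel plots 1 gene: points are single arrays, the y axis is log2(intensity + 16) after quantile normalization with its own range in each panel, and the black line is the mean of 3 arrays. The P49 points of Sqle, between 12.51 and 13.10, lie below all 6 of its P21 points, and the Cyp51 points of null animals lie below those of wild-type animals at P21.

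Sqle measured 13.78, 13.52 and 13.40 in wild-type animals at P21 and 12.91, 12.52 and 12.51 at P49. In null animals it measured 13.28, 13.62 and 13.44 at P21 and 13.10, 12.66 and 12.60 at P49, so that every P49 array was below every P21 array of either genotype. The difference with age was -0.92 ± 0.16 in the wild type, a level 0.529-fold that at P21 (95% interval 0.416 to 0.673, adjusted p = 0.0186, n = 3 and 3, limma). In the null it was -0.66 ± 0.16, a level 0.633-fold that at P21 (0.497 to 0.806, adjusted p = 0.0296 by limma). Over both genotypes the difference was -0.79 ± 0.11 (adjusted p = 0.00103 by limma), and it stayed called under all 22 alternatives run.

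Cyp51 measured 13.40, 13.22 and 13.23 in wild-type animals at P21 and 12.77, 12.33 and 12.31 at P49. In null animals it measured 12.71, 12.38 and 12.78 at P21 and 12.36, 11.84 and 11.89 at P49. Within each genotype the ages did not overlap, although the lowest null P21 array (12.38) was barely above the highest null P49 array (12.36). The wild-type difference was -0.81 ± 0.17, or 0.569-fold (0.442 to 0.733, adjusted p = 0.0449 by limma). The null difference of -0.59 ± 0.17 missed the threshold (adjusted p = 0.0570 by limma), while over both genotypes Cyp51 fell by 0.70 ± 0.12 (adjusted p = 0.00335 by limma), a call lost with the mean of its probe sets (0.0758).

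Ebp measured 13.46, 13.41 and 13.20 in null animals at P21 and 12.85, 12.72 and 12.80 at P49. In wild-type animals the values were 13.23, 13.32 and 13.36 at P21 and 13.10, 13.02 and 13.07 at P49. The ages did not overlap in either genotype. The null difference was -0.57 ± 0.10, or 0.675-fold (0.580 to 0.786, adjusted p = 0.00540 by limma). The wild-type difference was -0.24 ± 0.10 (adjusted p = 0.415 by limma), and over both genotypes Ebp fell by 0.41 ± 0.07 (adjusted p = 0.00411 by limma), called under all 22 alternatives.

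Nsdhl measured 12.32, 12.45 and 12.69 in wild-type animals at P21 and 11.91, 12.30 and 12.16 at P49, and 12.56, 12.64 and 12.26 in null animals at P21 against 12.07, 12.15 and 11.88 at P49. Its arrays separated by age in both genotypes, narrowly in the wild type. The difference was -0.37 ± 0.15 in the wild type and -0.45 ± 0.15 in the null (adjusted p = 0.388 and 0.0939 by limma), and over both genotypes it fell by 0.41 ± 0.11 (adjusted p = 0.0340 by limma).

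The other members did not pass the threshold for age in any contrast. Dhcr7, the final reductase, measured 12.33, 12.97 and 12.62 in null animals at P21 and 12.04, 11.87 and 12.24 at P49, which do not overlap, with a difference of -0.59 ± 0.18 (adjusted p = 0.0730 by limma). In wild-type animals Dhcr7 measured 12.76, 12.57 and 12.64 at P21 and 12.43, 12.68 and 12.03 at P49, which overlap, with a difference of -0.27 ± 0.18. Msmo1 differed by -0.38 ± 0.15 with age in the wild type and by -0.24 ± 0.15 in the null, and Fdft1 by -0.24 ± 0.13 and -0.17 ± 0.13. Lss, whose arrays spread widely in the null at P21 (SD 0.56, n = 3), differed by -0.37 ± 0.25 and -0.09 ± 0.25. Sc5d, at -0.03 ± 0.15 and -0.15 ± 0.15, showed the smallest difference over both genotypes, -0.09 ± 0.10, with a 95% interval from -0.31 to 0.13. In the wild type the 95% intervals of Fdft1, Lss, Sc5d and Dhcr7 include 0, and their lower ends were -0.51, -0.91, -0.34 and -0.67.

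**Figure D2:**
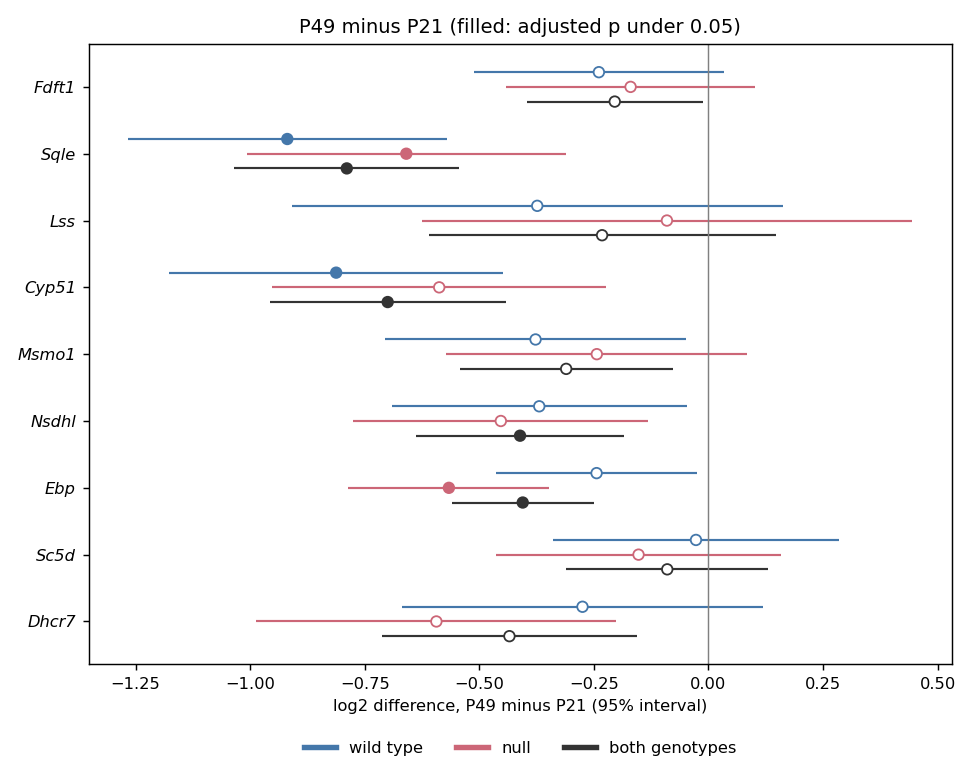
Log2 difference of P49 minus P21 for each of the 9 genes (x axis) in wild-type animals, null animals and both together, with 95% intervals from limma and filled points where the adjusted p is under 0.05. Every point lies left of 0, from -0.92 for Sqle to -0.03 for Sc5d, both in the wild type.

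Of all genes tested, 0.536% were called lower with age in the wild type (2 of 9 enzymes), 3.46% in the null (2 of 9) and 3.83% over both genotypes (4 of 9). Arrays of the ages that did not overlap, with P49 lower, were found for 6 of 9 enzymes in the wild type, where 11.0% of all genes did so, and for 5 of 9 in the null, where 12.0% did. Leaving out any 1 of 4 wild-type arrays, replicates 1 and 2 at P21 and replicates 2 and 3 at P49, ended the wild-type call of Sqle (adjusted p from 0.0813 to 0.122 by limma), and the call of Cyp51 ended without any 1 of 7 arrays, namely all 3 wild-type P21 arrays and replicates 2 and 3 of both P49 groups (0.0608 to 0.250), and under 4 other alternatives (0.0565 to 0.499). In the null, Sqle was no longer called without replicate 2 at P21, replicate 2 or 3 at P49 or the 3 low-Xist arrays (0.0541 to 0.200), both null calls when the null arrays were fitted alone (Sqle 0.0987, Ebp 0.0718), and the call of Nsdhl over both genotypes without any 1 of 8 arrays (0.0552 to 0.0904); over both genotypes all 4 calls held without the 3 low-Xist arrays.

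Some markers of myelinating oligodendrocytes also fell with age. Of 20 listed markers, 14 were measured above the filter, and in the wild type 14 of 14 had negative differences with age, 6 of them called lower, with a median of -0.53. In the null 11 of 14 were negative, 4 of them called lower, with a median of -0.40. Averaged over the 14 markers as a deviation from each gene's mean over the 12 arrays, the arrays lay between 0.38 and 0.70 in the wild type at P21, between -0.09 and 0.17 in the null at P21, between -0.20 and -0.13 in the wild type at P49 and between -0.39 and -0.31 in the null at P49. The same mean over the 9 enzymes lay between 0.21 and 0.36, between 0.03 and 0.17, between -0.17 and -0.07, and between -0.40 and -0.16 in those groups. Markers of other cells moved with age in the null as well: 8 of 10 Purkinje cell markers were called lower (median -0.68) and 8 of 9 microglial markers were called higher (median 1.82), where 271 and 218 of all 7835 genes were called lower and higher. The microglial mean lay between -0.17 and 0.10 in the null at P21 and between 1.45 and 1.73 at P49, and the Purkinje mean between 0.0042 and 0.28 and between -0.88 and -0.24. In the wild type 0 of 10 Purkinje and 0 of 9 microglial markers were called with age by limma, with 2 and 0 at an unadjusted p under 0.05. The part of these markers in the age and genotype differences of the enzymes was not tested.

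**Figure D3:**
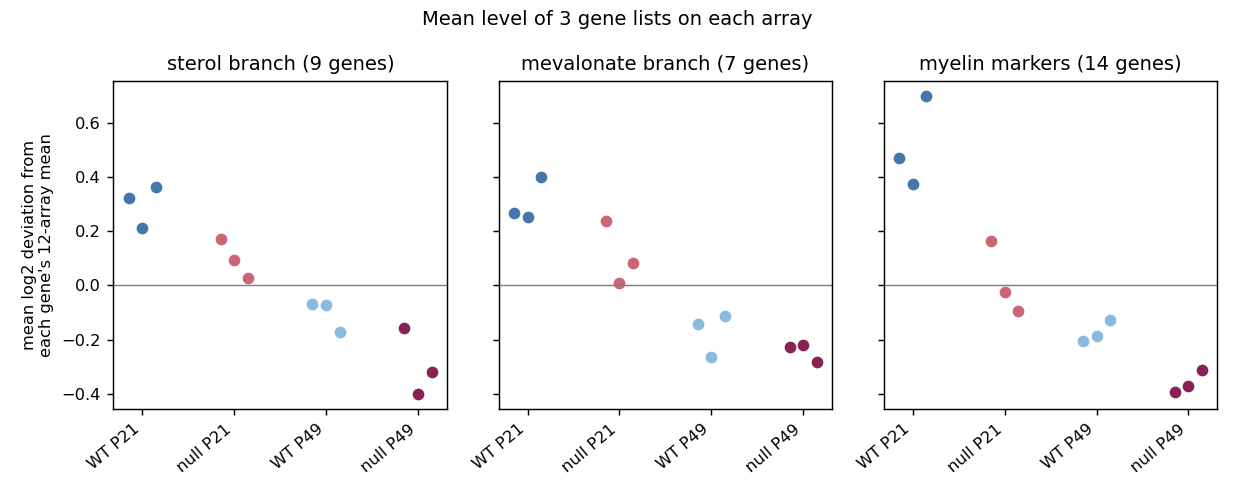
Mean log2 deviation from each gene's mean over 12 arrays (y axis), 1 point per array, for the 9 sterol-branch enzymes, 7 mevalonate-branch enzymes and 14 myelin markers. In all 3 panels the wild-type P21 arrays are highest, from 0.21 upward for the sterol branch.

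Between genotypes, 8 of 9 enzymes had negative differences (null minus wild type) at each age, mostly within the spread of the arrays. Of all 7835 genes, 3969 were negative at P21 and 4238 at P49. Some of the enzymes' differences lay near 0, such as Nsdhl (-0.0048) and Dhcr7 (-0.014) at P21 and Fdft1 (-0.062) and Lss (-0.064) at P49. The median difference was -0.13 at P21 (all genes -0.0045) and -0.27 at P49 (all genes -0.019). At neither age was a member called by limma, while 2 of 9 had an unadjusted p under 0.05 at each age (Cyp51 and Msmo1 at P21, Cyp51 and Ebp at P49), as did 788 and 887 of all 7835 genes. Averaged over both ages 1 of 9 was called, Cyp51, the lanosterol demethylase. The exceptions in direction were Ebp at P21 (0.05 ± 0.10) and Sqle at P49 (0.14 ± 0.16).

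In null animals Cyp51 differed from the wild type by -0.66 ± 0.17 at P21 (adjusted p = 0.267 by limma), with all 3 null arrays, at 12.78 or below, under all 3 wild-type arrays, at 13.22 or above. At P49 the difference was -0.44 ± 0.17 (adjusted p = 0.300 by limma), and null replicate 1 (12.36) overlapped wild-type replicates 2 and 3. Over both ages it was lower, with a difference of -0.55 ± 0.12, or 0.684-fold (0.572 to 0.818, adjusted p = 0.0287 by limma). It was no longer called when any of 6 arrays was left out, the 3 wild-type arrays at P21, replicate 1 of the wild type and replicates 2 and 3 of the null at P49 (adjusted p from 0.0560 to 0.101), without the 3 low-Xist arrays (-0.52, 0.109) and with the mean of its probe sets (-0.84, 0.0562), and the adjusted p ranged from 0.00991 to 0.109 over 22 alternatives.

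Msmo1 measured 13.07, 13.06 and 12.78 in null animals at P21, below the wild-type 13.29, 13.17 and 13.71, and 12.95, 12.51 and 12.71 at P49, below the wild-type 13.07, 12.95 and 13.02. Its null and wild-type arrays did not overlap at either age, but at P49 the highest null and the lowest wild-type array share the rounded value 12.95. The differences were -0.42 ± 0.15 and -0.29 ± 0.15, and -0.35 ± 0.11 over both ages (adjusted p = 0.130 by limma), which did not pass. Ebp did not overlap at P49, where the null values from 12.72 to 12.85 lay below the wild-type values from 13.02 to 13.10, a difference of -0.27 ± 0.10 (adjusted p = 0.274 by limma). Sc5d did not overlap at P21, where it measured 12.77, 12.63 and 12.72 in null animals against 13.07, 12.78 and 12.80, but did at P49 (12.74, 12.32 and 12.61 against 13.12, 12.79 and 12.67). Its differences were -0.18 ± 0.15 and -0.30 ± 0.15, and -0.24 ± 0.10 over both ages (adjusted p = 0.301 by limma).

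For Fdft1, Lss, Nsdhl and Dhcr7 null and wild-type arrays overlapped at both ages. Fdft1 ranged from 12.70 to 13.15 in null animals at P21 against 12.97 to 13.23, and from 12.71 to 12.90 at P49 against 12.78 to 12.90. Lss ranged from 10.99 to 12.09 in null animals at P21 against 11.78 to 12.10, and from 11.43 to 11.55 at P49 against 11.08 to 11.87. The genotype differences over both ages were -0.10 ± 0.09 for Fdft1, -0.21 ± 0.18 for Lss, -0.05 ± 0.11 for Nsdhl, -0.17 ± 0.13 for Dhcr7, -0.11 ± 0.07 for Ebp and 0.01 ± 0.11 for Sqle. The interval of the Sqle difference ran from -0.24 to 0.26, so a genotype difference of Sqle in either direction within that range is not excluded.

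**Figure D4:**
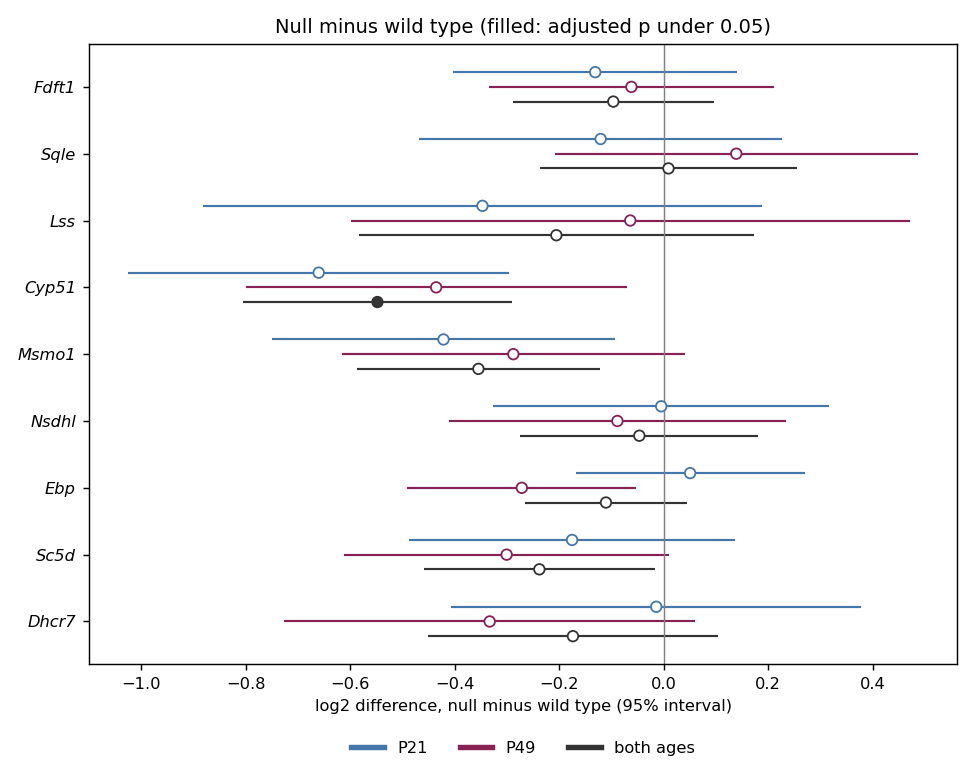
Log2 difference of null minus wild type for each of the 9 genes (x axis) at P21, at P49 and over both ages, with 95% intervals from limma and filled points where the adjusted p is under 0.05. The only filled point is Cyp51 over both ages, at -0.55.

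Of all genes tested, 0.0128% were called lower in the null at P21, 1.15% at P49 and 0.779% over both ages. Null arrays lay below wild-type arrays without overlap for 3 of 9 enzymes at P21 (Cyp51, Msmo1 and Sc5d), where 5.56% of all genes did so, and for 2 of 9 at P49 (Msmo1 and Ebp), where 12.0% of all genes did. Myelin markers had negative differences at P21 for 14 of 14 genes, with a median of -0.47, 0 called by limma and 8 at an unadjusted p under 0.05. For P49 the myelin median was nearer 0, at -0.16, with 10 of 14 negative, 0 called and 2 at an unadjusted p under 0.05. Over both ages 4 of 14 were called lower with a median of -0.30. At P49, 8 of 9 microglial markers were called higher, 9 of 10 Purkinje cell markers were called lower and 2 of 11 astrocyte and Bergmann glia markers were called higher in the null, where 120 of all 7835 genes were called higher. Over both ages, the contrast in which Cyp51 was called, 8 of 9 microglial markers were called higher and 5 of 10 Purkinje cell markers lower, where 106 of all 7835 genes were called higher. At P21, 2 of 9 microglial markers were called higher, as were 4 of all 7835 genes, and 0 of 10 Purkinje cell markers were called by limma, with 0 at an unadjusted p under 0.05. Their mean deviations at P49 were 1.45 to 1.73 in the null against -0.88 to -0.82 in the wild type for microglia, and -0.88 to -0.24 against 0.34 to 0.37 for Purkinje cells. Their part in the Cyp51 call was not tested.

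Whether the genotype difference itself changed with age was tested by the interaction. No member was called by limma, against 0.204% of all genes called lower, and 1 of 9, Ebp, had an unadjusted p under 0.05, as did 660 of all 7835 genes, a share close to that of the members. Ebp was at 0.05 in null minus wild type at P21 and at -0.27 at P49, a change of -0.32 ± 0.14 (adjusted p = 0.574 by limma). The interaction of Cyp51 was 0.22 ± 0.24 with a 95% interval from -0.29 to 0.74, and that of Sqle 0.26 ± 0.23 with one from -0.23 to 0.75, so the age differences of these genes are not shown to differ between the genotypes. The median interaction was 0.07.

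The mevalonate branch, which supplies the sterol branch, also held genes that fell with age. Of its genes, 7 were analysed here. All 7 had negative differences with age in each genotype, with medians of -0.40 in the wild type and -0.36 in the null, and 2 of 7 were called in each. Hmgcs1, which makes HMG-CoA, measured 16.01, 15.90 and 16.15 in wild-type animals at P21 and 15.06, 15.12 and 15.01 at P49, a difference of -0.96 ± 0.12 (adjusted p = 0.00243 by limma). In null animals it measured 15.83, 15.27 and 15.64 at P21 and 14.86, 14.99 and 14.97 at P49, a difference of -0.64 ± 0.12 (adjusted p = 0.00686 by limma). Fdps, which makes the farnesyl pyrophosphate that Fdft1 uses, fell by 0.69 ± 0.12 in the wild type (adjusted p = 0.0206 by limma). Mvd, the mevalonate diphosphate decarboxylase, fell by 0.52 ± 0.15 in the null (adjusted p = 0.0498 by limma). Hmgcs1, Fdps and Mvd were the 3 of 7 called over both genotypes, at -0.80, -0.51 and -0.46. The call of Mvd in the null was lost under 16 of 22 alternatives, including without any 1 of 10 arrays, that of Fdps in the wild type under 5 of 22, and that of Hmgcs1 in the null only when the null arrays were fitted alone (0.0694).

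No mevalonate gene was called between genotypes by limma. Differences were negative for 5 of 7 at P21 (median -0.24) and for 3 of 7 at P49 (median 0.023). Over both ages 5 of 7 were negative, with a median of -0.10. The smallest p at P21 belonged to Hmgcs1 (-0.44 ± 0.12, adjusted p = 0.328), and at P49 and over both ages to Idi1, the isomerase of the branch (-0.51 ± 0.19 and -0.48 ± 0.13, adjusted p = 0.257 and 0.0961 by limma). In the interaction it belonged to Fdps (0.36 ± 0.18, adjusted p = 0.612 by limma). Of the other sterol-branch genes, 4 were analysed here. Erg28, a scaffold protein thought to hold sterol-branch enzymes together, measured 13.73, 13.22 and 13.22 in null animals at P49, below the wild-type 14.06, 14.25 and 14.13. It was lower at P49, with a difference of -0.76 ± 0.13 (adjusted p = 0.00500 by limma), and over both ages, with one of -0.44 ± 0.09 (adjusted p = 0.0261 by limma). With age in the null it differed by -0.54 ± 0.13 (adjusted p = 0.0294 by limma). The P49 call held under all 23 alternatives run, the call over both ages was lost under 9 of 22 and the age call under 6 of 23. The interaction of Erg28, -0.64 ± 0.19, was not called (adjusted p = 0.252 by limma). Tm7sf2, a sterol reductase, had the smallest p with age in the wild type (-0.34 ± 0.16, adjusted p = 0.490 by limma) and over both genotypes (-0.34 ± 0.11, adjusted p = 0.0825). Lbr, also a sterol reductase, had it between genotypes at P21 (-0.13 ± 0.12, adjusted p = 0.690 by limma).

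**Figure D5:**
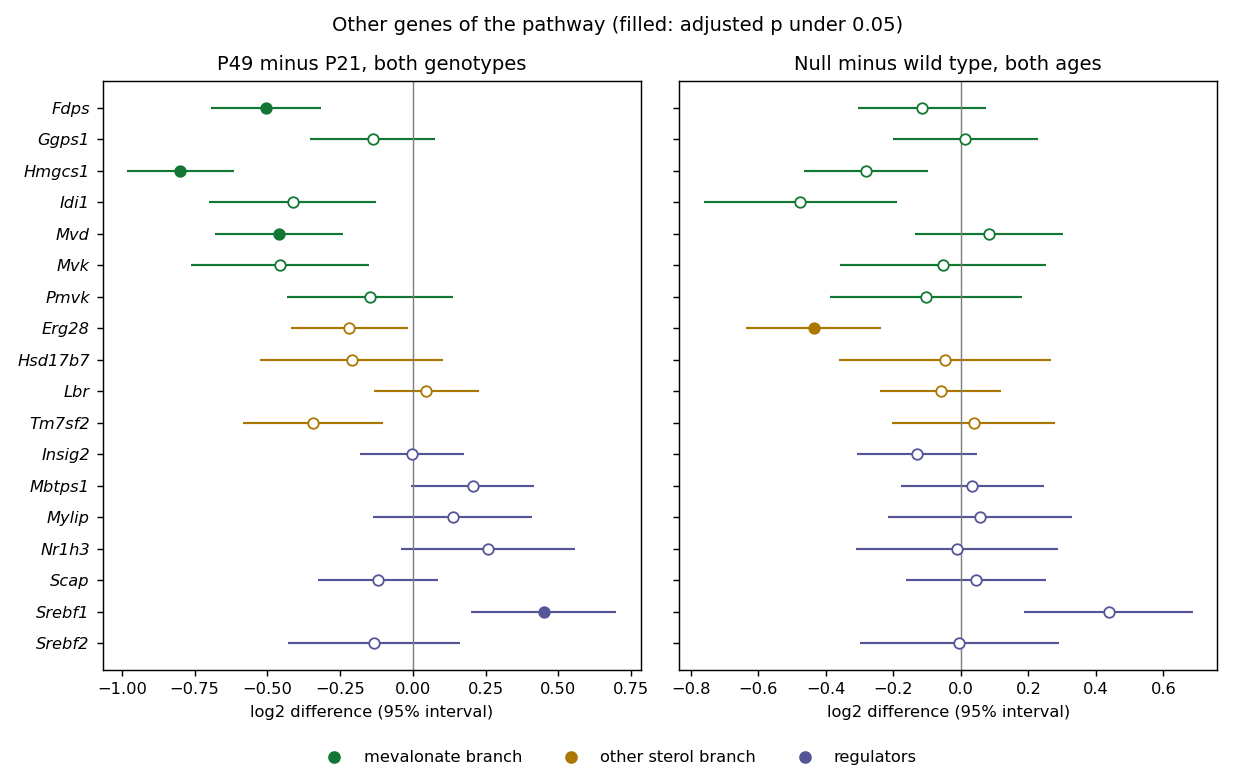
Log2 difference (x axis) with 95% limma intervals for 18 other genes of the pathway, P49 minus P21 over both genotypes at left and null minus wild type over both ages at right, with filled points where the adjusted p is under 0.05. Hmgcs1, Fdps and Mvd are filled and below 0 at left and Srebf1 above 0, while at right only Erg28 is filled, at -0.44.

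Of the regulators of sterol balance, 7 were analysed here. Srebf2, which encodes SREBP-2 and was singled out after its values were seen, differed by -0.05 ± 0.19 with age in the wild type, -0.21 ± 0.19 with age in the null and -0.0049 ± 0.14 between genotypes over both ages. Srebf1, which encodes the related factor that acts mainly on fatty acid genes, was the 1 regulator called, higher at P49 over both genotypes by 0.45 ± 0.12 (adjusted p = 0.0349 by limma), and the call was lost without any 1 of 8 arrays. It was also higher in the null over both ages by 0.44 ± 0.12, short of the threshold (adjusted p = 0.0741 by limma), and had the smallest p of the regulators at each age (0.42 ± 0.16 at P21 and 0.45 ± 0.16 at P49, adjusted p = 0.457 and 0.248). Nr1h3, an oxysterol receptor, had the smallest p with age in the wild type (0.65 ± 0.20, adjusted p = 0.212 by limma) and in the interaction (-0.79 ± 0.28, adjusted p = 0.426). Mbtps1, a protease that activates SREBP proteins, had it with age in the null (0.40 ± 0.14, adjusted p = 0.112 by limma).

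Fdft1, Lss, Cyp51 and Sc5d have more than 1 probe set, and 13 of the 17 probe sets passed the filter. The second Cyp51 probe set went the same way, by -0.40 ± 0.23 between genotypes over both ages, -0.84 ± 0.33 with age in the wild type and -0.59 ± 0.33 in the null, and none of these passed (adjusted p = 0.483, 0.411 and 0.339 by limma over the 13576 probe sets tested). The remaining Cyp51 probe set was below the filter. The second Lss probe set reversed the genotype difference at P21 (0.02 ± 0.24 in place of -0.35 ± 0.25) and gave -0.49 ± 0.24 with age in the null in place of -0.09 ± 0.25, so the size of the Lss differences depends on the probe set. The second probe set of Fdft1 gave -0.11 ± 0.13 with age in each genotype, and that of Sc5d -0.12 ± 0.27 and -0.17 ± 0.27.

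Within groups some pairs of the 9 enzymes varied together and others did not. After subtracting each group's mean, the correlation between 2 enzymes over the 12 arrays was positive for 24 of 36 pairs, with a median of 0.13, highest for Fdft1 with Ebp (0.85) and lowest for Sqle with Lss (-0.69). These are descriptions over 12 arrays that share a platform and normalization, and no such median was computed for pairs of other genes. The genes outside the 9 whose deviations followed the mean deviation of the enzymes most closely over the 12 arrays were Cdk16 (0.95), Cab39l (0.91), Dnajc14 (0.90), Txnrd1 (0.89) and Psmd12 (0.88), taken as the highest of all 7835 genes. Idi1 ranked highest among the mevalonate enzymes, at 0.56 (rank 332 of the genes outside the 9). Of the others, Fdps (0.33), Pmvk (0.28), Hmgcs1 (0.19) and Ggps1 (0.02) were positive, and Mvd (-0.23) and Mvk (-0.44) were negative.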

How the data were processed

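RNA from the cerebellum of 12 animals was labelled with biotin and hybridised to 12 Affymetrix arrays, per the labels' protocols. For each array the authors deposited linear intensities, 1 for every probe set. How probes were summarised and arrays scaled is not given in the sources used, and detection calls were not used. The deposited values do show a common scale. Their mean, with 2% trimmed at each end, lay between 5001.87 (wild-type P21 replicate 1) and 5002.24 (null P21 replicate 2) on all 12 arrays. One protocol text gives P21 for all animals, and the time point label of each animal was used instead. No array carries a depth, so the number of arrays limits the precision.

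Of 22690 probe sets, 64 controls were left out. The deposited intensities were taken as log2(value + 16) and quantile normalized, because array medians on the log2 scale ranged from 10.65 to 10.92. Fold changes on this scale understate the change of dim genes. Probe sets were named by the platform annotation, updated by Entrez identifier with RefSeq (GRCm38.p6). Of the rest, 20380 had 1 symbol, 691 several and 1555 none. Each gene is its brightest probe set by mean with 1 symbol, kept at a mean intensity of 959 or more (the 40th percentile), which left 7835 of 12393 genes. Group means of all 12 arrays were fitted in limma 3.58.1 (R 4.3.3, eBayes with trend, two-sided, Benjamini-Hochberg over all genes tested, threshold 0.05). Limma was first tested on simulated data.

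The genes named are the 9 members, other pathway genes called in a contrast or with the smallest p where none was, and the 5 genes most like the members' mean, with Srebf2 added outside this rule. The members and lists were chosen with earlier results of these data known, and the age contrast over both genotypes was added after seeing the data. Same-numbered replicates showed no general pairing: the correlation of their deviations had a median of 0.0027, against 0.0060 for other pairs. It ranged from -0.18 to 0.19 and exceeded 0.1 for 6 of 18 pairs. Wild type at P21 with P49 gave 0.16, 0.087 and 0.12, and wild type with null at P49 gave 0.19, 0.11 and 0.076. Wild type with null at P21 gave -0.13, 0.12 and -0.18. A link between replicates in some groups is therefore not excluded. Alternatives covered the normalization, pseudocount, filter, choice of probe set, variance trend, replicate block, arrays in the fit, each array left out and the 3 low-Xist arrays left out.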

Additional observations from a re-analysis of the deposited data

How the results depend on the processing

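Over the alternatives, the 9 members gave 1332 values with the same direction and side of the threshold, 38 that lost a call, 10 that gained one and 35 that changed sign, none of the last called. The number of members called lower with age in the wild type was 1 with the values as deposited, without a filter, with the mean of probe sets and without the variance trend. The number called lower over both ages between genotypes was 0 with the mean of probe sets and 0 without the 3 low-Xist arrays, where the median was -0.083. Called lower with age in the null were 1 without those arrays and 0 with the null arrays fitted alone, where fewer samples enter. The median interaction was -0.083 with the mean of probe sets and -0.059 without the 3 arrays. Leaving out 1 array at a time, the counts called lower ranged from 0 to 1 for genotype over both ages, 0 to 2 for age in the wild type, 1 to 3 for age in the null and 3 to 5 for age over both genotypes. The medians ranged from -0.21 to -0.087 for genotype at P21, from -0.30 to -0.18 for genotype at P49, from -0.060 to 0.16 for the interaction and from -0.43 to -0.26 for age in the wild type. Signs turned with the mean of probe sets for the Cyp51 interaction (-0.083) and Lss with age in the null (0.069). Without the 3 arrays they turned for genotype at P21 of Lss (0.098) and Nsdhl (0.052), for the interactions of Fdft1 (-0.059), Lss (-0.16) and Dhcr7 (0.031), and over both ages for Sqle (-0.083) and Lss (0.017). The cause was not tested.

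Leaving out single arrays also turned signs near 0.
The ranges for genotype at P21 were -0.087 to 0.11 for Nsdhl, -0.00052 to 0.13 for Ebp and -0.18 to 0.14 for Dhcr7, and at P49 -0.019 to 0.27 for Sqle and -0.30 to 0.098 for Lss. Over both ages they were -0.070 to 0.076 for Sqle and -0.10 to 0.0099 for Nsdhl. The interactions ranged from -0.060 to 0.16 for Fdft1, from -0.012 to 0.54 for Lss, from -0.028 to 0.24 for Msmo1, from -0.20 to 0.0046 for Nsdhl and from -0.22 to 0.0035 for Sc5d. With age, Sc5d in the wild type ranged from -0.16 to 0.068 and Lss in the null from -0.39 to 0.17.
With the replicate block, although the labels state no pairing of the samples, 2 members were called lower with age in the wild type, 3 in the null and 4 over both genotypes, Cyp51 with age in the null becoming called (adjusted p = 0.0241 by limma), and 1 over both ages between genotypes. Without normalization or with 75th-percentile scaling the median of all genes moved by under 0.1 (log2).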
